A study of Aedes aegypti with 33 samples.

Results

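The genes described here are IAP1 and the caspases of the mosquito Aedes aegypti, 10 gene identifiers that were given by a list naming IAP1, Dronc, Dredd and effector-type caspases. Of these, 9 were found among the 19712 identifiers of the count tables, and AAEL005963 was not analysed here. The order of the list pairs AAEL009074 with IAP1, AAEL011562 with Dronc and AAEL014148 with Dredd. That pairing was taken as given and was not checked against sequence. AAEL003444 is annotated as CASPS19, a short caspase, and lies on chromosome 3 of the AaegL5 assembly from 349754941 to 349756159. These bounds come from the study's annotation and are those of the RefSeq gene LOC5578111, and the match rests on position, not on the identifier. The remaining genes, AAEL012143, AAEL014348, AAEL005955, AAEL005956 and AAEL003439, are called effector-type caspases by the list, with no further name used here.

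Caspases are cysteine proteases that carry out apoptosis. In Drosophila, the initiator caspase Dronc is activated on an adaptor and cleaves effector caspases, which then cut many cellular proteins, while IAP1 binds caspases and holds them in check, so that its loss is enough to start cell death. Dredd is the caspase best known for its place in the IMD immune pathway. These proteins are regulated largely after translation, by cleavage, binding and degradation, which transcript counts do not measure.

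RNA was sequenced from 2 continuous Ae. aegypti cell lines, Aag2 and A20, in 4 experiments of 33 libraries with 3 libraries in each of 11 groups. The study set out to find genes that answer to heme, the iron-bearing molecule that the mosquito takes up in a blood meal. Aag2 cells in Schneider's medium and Aag2 cells in L-15 were each grown for 72 h in regular growth media with 10% fetal bovine serum (FBS), in the same medium without serum (0 μM heme), or without serum and with 10 μM heme added. A20 cells had the same 3 treatments for 72 h, with FBS in L-15 but with both serum-free groups in SF900II, so in A20 cells the loss of serum and the change of basal medium cannot be told apart. A further experiment lasted 48 h and kept FBS in Schneider's medium throughout, with Aag2 cells left untreated or given 20 μM heme. In every 72 h experiment, the step from FBS to 0 μM heme removed the whole serum, heme included, whereas 10 μM against 0 μM heme differed by added heme alone. The make-up of the cultures was not checked with cell type markers, and in bulk RNA fewer cells of a kind and less RNA per cell cannot be told apart.

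Each library held between 22860764 and 38002762 counted reads, with a median of 26421952. The 10 most abundant genes took 7.18% to 17.6% of the reads of a library, and the highest shares were in A20 cells with 10 μM heme, at 14.1%, 17.6% and 15.5%. Levels below are CPM, read counts relative to the library's total, with the totals scaled by the trimmed mean of M-values (TMM), and levels of different genes are not compared, since they were not divided by gene length. A gene was called where the false discovery rate (FDR) of edgeR's quasi-likelihood test, with Benjamini-Hochberg adjustment over all genes tested, was below 0.0001. The filter on low counts left 8 of the 9 genes to test in Aag2 cells in Schneider's medium at 72 h, 9 in L-15, 6 in A20 cells and 8 at 48 h. The comparisons within an experiment share groups, so the values against FBS and against 0 μM heme are not independent.

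**Figure D1:**
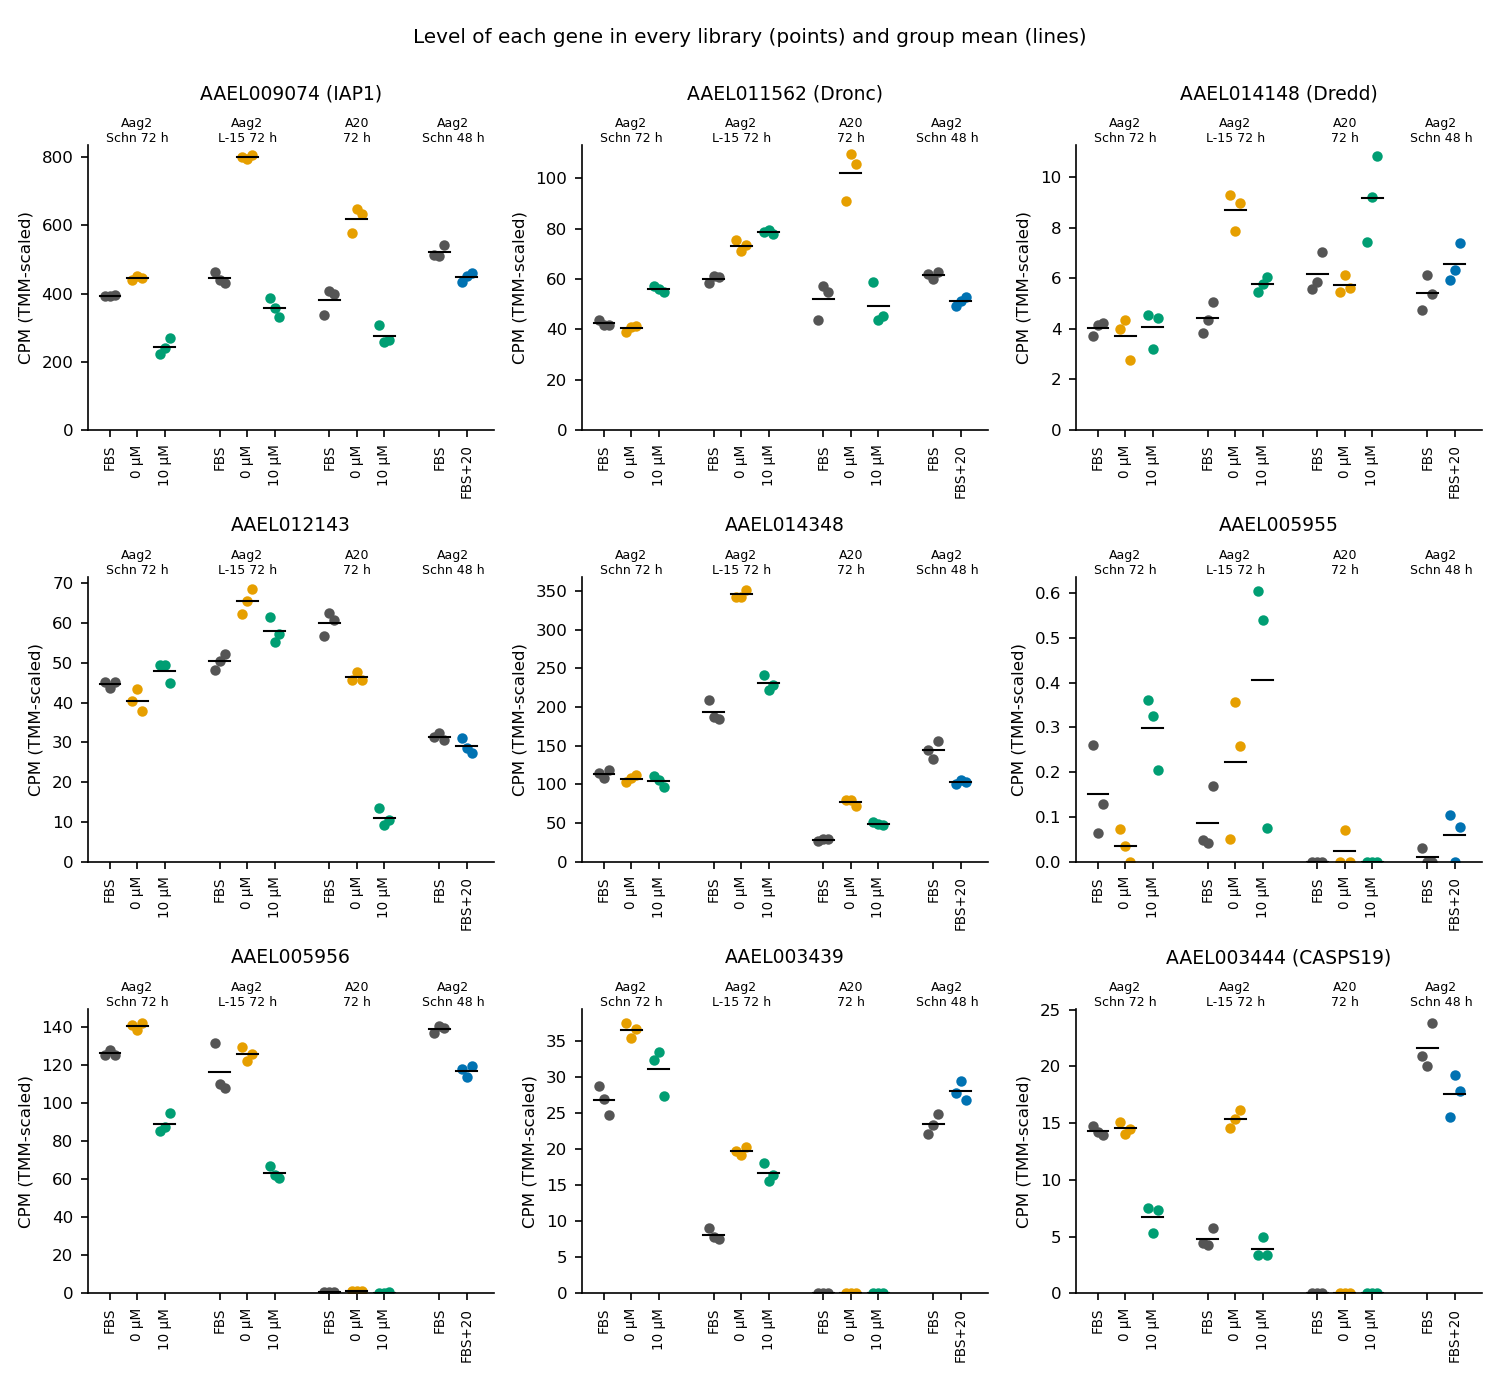
Level of each of the 9 genes in every library, in CPM on a linear axis that starts at 0, with 1 panel per gene and 1 point per library. Black lines are group means (n = 3), and colours mark FBS (grey), 0 μM heme (orange), 10 μM heme (green) and FBS with 20 μM heme (blue). IAP1 with 10 μM heme lies below 0 μM heme in all 3 experiments at 72 h, and AAEL005956, AAEL003439 and AAEL003444 lie at or near 0 in A20 cells.

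IAP1, the caspase inhibitor, fell when 10 μM heme was added to serum-free medium, in both lines and both media of Aag2. In Aag2 cells in Schneider's medium its level was 439.7, 450.5 and 444 CPM with 0 μM heme and 222, 241 and 268 CPM with 10 μM heme. The FBS libraries, at 392, 393 and 395 CPM, lay between them, and no library of any of the 3 groups overlapped another group. The log2 fold change of 10 μM against 0 μM heme was -0.87 (SE 0.055, edgeR quasi-likelihood FDR 2.56e-07), which is 1.83-fold lower, and against FBS it was -0.69 (FDR 1.72e-06).

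In Aag2 cells in L-15, IAP1 stood at 464, 441 and 432 CPM with FBS, at 801, 796 and 805 CPM with 0 μM heme and at 386, 357 and 331 CPM with 10 μM heme. Its level thus went up without serum and came down with heme, and the 3 groups did not overlap. It was 1.80-fold higher in 0 μM heme than in FBS (log2 fold change 0.85, SE 0.056, edgeR quasi-likelihood FDR 1.50e-07) and 2.24-fold lower once 10 μM heme was added (log2 fold change -1.16, SE 0.056, FDR 3.82e-08). Against FBS, the 10 μM libraries were lower by a log2 fold change of -0.32 that was not called (FDR 0.000344). DESeq2 and edgeR's exact test called it, as did 1 of the fits that left out 1 library (FDR 7.75e-05). With library totals in place of TMM, this small difference changed sign, to 0.07.

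In A20 cells, IAP1 was at 337, 407 and 397 CPM with FBS, at 576, 647 and 634 CPM with 0 μM heme and at 307, 257 and 264 CPM with 10 μM heme. The order of the groups was that of Aag2 cells in L-15, again with no overlap. The log2 fold change of 10 μM against 0 μM heme was -1.17 (SE 0.11, edgeR quasi-likelihood FDR 2.43e-05), and this call was lost without any of the libraries 0 μM heme 1, 2 or 3, or 10 μM heme 2 or 3, where the FDR was between 0.000108 and 0.000231, and where only the groups compared were fitted (FDR 0.000432). Without serum the change was 0.70 (SE 0.11) and not called (FDR 0.00222), though DESeq2 (FDR 4.56e-06) and edgeR's exact test (FDR 9.64e-05) called it. The A20 libraries with 10 μM heme had TMM factors of 0.834, 0.685 and 0.715, and with library totals in place of TMM the median over all genes in 10 μM against 0 μM heme moved by -0.70 and the IAP1 change went to -1.86 (FDR 1.17e-05).

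With 20 μM heme added to medium that kept its serum, IAP1 was not called by edgeR's quasi-likelihood test. Its level was 513, 511 and 542 CPM in untreated cells and 433, 450.3 and 461 CPM after 48 h. The groups did not overlap, and the log2 fold change of -0.22 (SE 0.038) was not called (edgeR quasi-likelihood FDR 0.00437), though DESeq2 called it. Dose, time and serum all differ from the 72 h experiments, so these values stand beside the others without a comparison.

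Dronc, the initiator caspase, moved the other way from IAP1 with added heme in Aag2 cells in Schneider's medium. It was at 43.7, 41.7 and 41.6 CPM with FBS, at 38.9, 40.9 and 41.4 CPM with 0 μM heme and at 57.0, 56.1 and 54.9 CPM with 10 μM heme. The 10 μM libraries stood above all 6 others, while the FBS and 0 μM groups lay side by side. Dronc was 1.39-fold higher in 10 μM than in 0 μM heme (log2 fold change 0.47, SE 0.042, edgeR quasi-likelihood FDR 3.26e-06). Against FBS its log2 fold change was 0.40 (FDR 1.31e-05), a call that was lost without FBS library 2 or 3 or 10 μM heme library 1 or 2, at an FDR of 0.000128 to 0.000171. That call was also lost with the replicate number as a block (FDR 0.000102).

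In Aag2 cells in L-15, Dronc was at 58.3, 61.1 and 60.8 CPM with FBS, at 75.4, 71.0 and 73.5 CPM with 0 μM heme and at 78.7, 79.6 and 77.8 CPM with 10 μM heme. The groups did not overlap and stood in that order. The change of 0.10 from 0 to 10 μM heme (SE 0.044) was not called (edgeR quasi-likelihood FDR 0.0640), nor was that of 0.29 from FBS to 0 μM heme (FDR 0.000175, called by DESeq2 and edgeR's exact test, and at 0.53 with library totals), while that of 0.39 from FBS to 10 μM heme was (FDR 1.08e-05). The last call was lost without 10 μM heme library 2 (FDR 0.000110).

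In A20 cells, the levels of Dronc stood in another order. It was at 43.8, 57.1 and 54.8 CPM with FBS, at 91.0, 109.6 and 106 CPM with 0 μM heme and at 58.9, 43.6 and 45.3 CPM with 10 μM heme. The 0 μM libraries stood above the other 6, which overlapped. Its log2 fold change was 0.98 (SE 0.15) without serum and -1.05 (SE 0.15) with heme, and neither was called, at edgeR quasi-likelihood FDRs of 0.00196 and 0.000247. Without 10 μM heme library 1, the higher of that group, the fall with heme was called (FDR 3.24e-05), as it was with library totals, at -1.73 (FDR 6.52e-05). DESeq2 called the rise and the fall (FDR 1.02e-06 and 3.45e-08), as did edgeR's exact test (FDR 2.35e-06 and 6.38e-08). At 48 h, Dronc was at 62.1, 60.0 and 62.9 CPM in untreated cells and at 49.4, 51.2 and 53.03 CPM with 20 μM heme, a log2 difference of -0.27 that was not called (FDR 0.00438).

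The share of IAP1 to Dronc transcripts was also read within each library, as IAP1 reads per Dronc read, a ratio that no scaling between libraries can move. In Aag2 cells in Schneider's medium it was 9.30 ± 0.296 with FBS (SD, n = 3), 11.0 ± 0.281 with 0 μM heme and 4.35 ± 0.500 with 10 μM heme. In Aag2 cells in L-15 the means were 7.42 ± 0.467, 10.9 ± 0.291 and 4.54 ± 0.328 in the same order. In both media the ratio was thus highest without serum and lowest with heme, by a factor of 2.54 in Schneider's medium and 2.41 in L-15. In A20 cells, where both genes were lower with heme than without, the ratio was 7.36 ± 0.292 with FBS, 6.08 ± 0.225 with 0 μM heme and 5.64 ± 0.371 with 10 μM heme. None of these groups overlapped within its experiment, and at 48 h the ratio was 8.46 ± 0.176 and 8.75 ± 0.051. With 3 libraries against 3, an exact two-sided permutation test cannot go below p = 0.10, the value each of these comparisons gave, and the adjusted p over the 47 ratio comparisons made was 0.112.

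**Figure D2:**
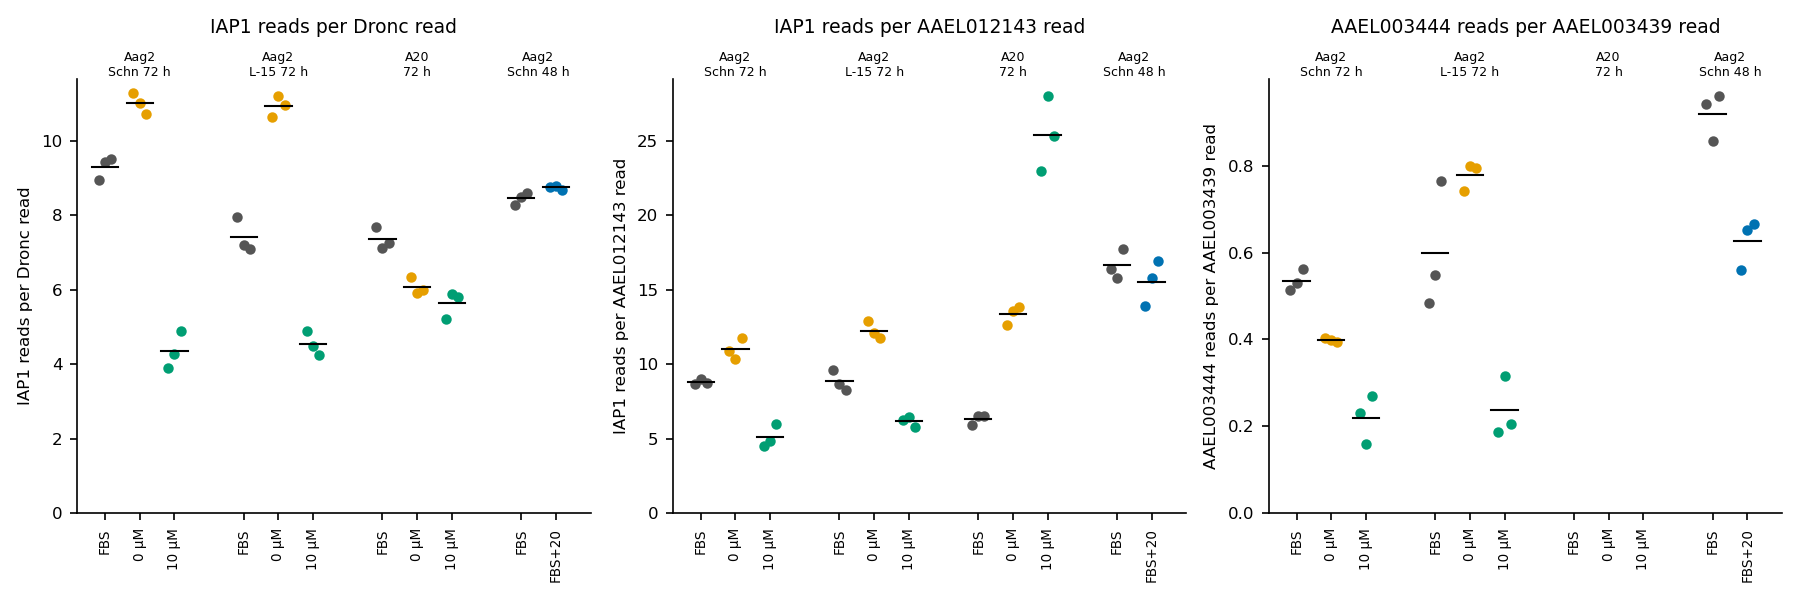
Reads of one gene per read of another within each library, in 3 panels on linear axes that start at 0. Points are libraries, lines are group means (n = 3), and the colours are those of the plot of levels. The ratio of IAP1 to Dronc falls from a mean of 11.0 to 4.35 in Schneider's medium and from 10.9 to 4.54 in L-15 when heme is added, the ratio of IAP1 to AAEL012143 rises to 25.4 in A20 cells with 10 μM heme, and the ratio of AAEL003444 to AAEL003439 could not be formed in A20 cells.

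Dredd was the least counted of the 3 genes that the list names, with levels of at most 10.9 CPM in any library. In Aag2 cells in L-15 it was at 3.83, 4.35 and 5.07 CPM with FBS, at 9.29, 7.87 and 8.99 CPM with 0 μM heme and at 5.48, 5.79 and 6.04 CPM with 10 μM heme. The 0 μM libraries stood above both other groups. The 1.97-fold rise without serum was called (log2 fold change 0.98, SE 0.14, edgeR quasi-likelihood FDR 7.60e-05), but the call was lost in 8 of the 9 fits that left out 1 library, at an FDR of up to 0.000495. It was also lost with the replicate number as a block (FDR 0.000198) and where only the groups compared were fitted (FDR 0.000399). The fall with heme was not called (-0.60, FDR 0.00257). The groups overlapped in Schneider's medium at 72 h, with all 9 libraries between 2.76 and 4.56 CPM, and at 48 h they overlapped too.

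In A20 cells, Dredd was at 5.60, 5.84 and 7.06 CPM with FBS, at 5.45, 6.12 and 5.62 CPM with 0 μM heme and at 7.44, 9.24 and 10.9 CPM with 10 μM heme. The 10 μM libraries were highest, by a log2 fold change of 0.68 over 0 μM heme that was not called (edgeR quasi-likelihood FDR 0.00908). With library totals in place of TMM, that difference was -0.03, so its direction rests on the scaling.

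Among the effector-type caspases called, AAEL003444 (CASPS19) had the largest log2 fold changes in Aag2 cells at 72 h for 10 against 0 μM heme. In Schneider's medium it was at 14.8, 14.2 and 13.9 CPM with FBS, at 15.1, 14.1 and 14.5 CPM with 0 μM heme and at 7.49, 5.34 and 7.38 CPM with 10 μM heme. The 10 μM libraries lay well below the others, which overlapped. The log2 fold change of 10 μM against 0 μM heme was -1.11 (SE 0.12, edgeR quasi-likelihood FDR 1.56e-05), a call lost without 0 μM heme library 1 (FDR 0.000120) or 3 (FDR 0.000103). Against FBS it was -1.09 (FDR 2.27e-05), a call lost without any 1 of the FBS libraries, at an FDR of 0.000114 to 0.000158. That call was also lost where only the groups compared were fitted (FDR 0.000233).

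In L-15, AAEL003444 was at 4.40, 4.27 and 5.74 CPM with FBS, at 14.6, 15.4 and 16.2 CPM with 0 μM heme and at 3.41, 4.94 and 3.37 CPM with 10 μM heme. Only the 0 μM libraries stood apart. The gene rose 3.20-fold without serum (log2 fold change 1.68, SE 0.17, edgeR quasi-likelihood FDR 5.52e-06) and fell 3.94-fold with heme (log2 fold change -1.98, SE 0.17, FDR 2.65e-06). The FBS and 10 μM groups differed by a log2 fold change of -0.30 with a 95% interval from -0.64 to 0.04 (FDR 0.147). At 48 h it was at 20.9, 20.0 and 23.9 CPM in untreated cells and at 15.6, 19.3 and 17.9 CPM with 20 μM heme (FDR 0.0687). In A20 cells it had no read in any of the 9 libraries.

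AAEL003439 rose without serum in L-15, and its difference between 10 and 0 μM heme was not called in either Aag2 medium. In L-15 it was at 9.09, 7.79 and 7.51 CPM with FBS, at 19.7, 19.2 and 20.4 CPM with 0 μM heme and at 18.2, 15.6 and 16.4 CPM with 10 μM heme. Both serum-free groups lay above FBS and next to each other. Its log2 fold change was 1.28 (SE 0.10, edgeR quasi-likelihood FDR 7.95e-07) for 0 μM heme against FBS, 1.04 (FDR 3.26e-06) for 10 μM heme against FBS and -0.24 (FDR 0.0550) for 10 μM against 0 μM heme. In Schneider's medium it was at 28.7, 26.9 and 24.8 CPM with FBS, at 37.6, 35.4 and 36.7 CPM with 0 μM heme and at 32.4, 33.5 and 27.4 CPM with 10 μM heme, and no difference was called, the FDR of 0 μM heme against FBS being 0.00208. In A20 cells 2 of the 9 libraries, both with 0 μM heme, had 2 reads each and the others none.

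The ratio of these genes was also read within each library. AAEL003444 reads per AAEL003439 read were 0.535 ± 0.024 with FBS, 0.398 ± 0.0046 with 0 μM and 0.220 ± 0.056 with 10 μM heme in Schneider's medium (SD, n = 3). In L-15 they were 0.599 ± 0.147, 0.778 ± 0.033 and 0.237 ± 0.070 in the same order. At 48 h they were 0.920 ± 0.055 in untreated cells and 0.626 ± 0.058 with 20 μM heme, without overlap. The FBS and 0 μM groups overlapped in L-15 and not in Schneider's medium. For 10 against 0 μM heme the groups did not overlap in either medium, and the exact permutation test gave its smallest possible p of 0.10 in both.

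AAEL005956 fell with heme in both Aag2 media, and its difference between 0 μM heme and FBS was not called in either. In Schneider's medium it was at 126, 128 and 125 CPM with FBS, at 141, 138 and 142 CPM with 0 μM heme and at 85.3, 87.7 and 94.8 CPM with 10 μM heme. In L-15 it was at 132, 110.1 and 108 CPM with FBS, at 129.5, 122 and 126 CPM with 0 μM heme and at 67.1, 62.1 and 60.5 CPM with 10 μM heme. In both media the 10 μM libraries were below all others, and in L-15 the FBS and 0 μM groups overlapped. The log2 fold change of 10 μM against 0 μM heme was -0.66 (SE 0.042, edgeR quasi-likelihood FDR 2.50e-07) in Schneider's medium and -0.99 (SE 0.074, FDR 9.10e-07) in L-15. The gene was also lower in 10 μM heme than in FBS, by -0.50 (FDR 2.29e-06) and -0.88 (FDR 8.55e-07). At 48 h it was at 137, 141 and 139.6 CPM in untreated cells and at 118, 114 and 119 CPM with 20 μM heme, a difference of -0.25 that was not called (FDR 0.00169), though DESeq2 called it. In A20 cells it was near the limit of detection, at 0.74, 0.86 and 0.62 CPM with FBS, at 1.14, 1.36 and 1.52 CPM with 0 μM heme and at 0.42, 0.43 and 0.59 CPM with 10 μM heme. The groups did not overlap there, with 0 μM heme highest and 10 μM heme lowest, at a log2 fold change of -1.47 (SE 0.32) for 10 against 0 μM heme that was not called (FDR 0.00250).

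AAEL014348 rose without serum and fell with heme in L-15, and no difference of it was called in Schneider's medium. In L-15 it was at 209, 187 and 184 CPM with FBS, at 343, 343 and 352 CPM with 0 μM heme and at 242, 222 and 229 CPM with 10 μM heme. The 3 groups did not overlap, and the 10 μM libraries lay between the others. Its log2 fold change was 0.84 (SE 0.055, edgeR quasi-likelihood FDR 1.53e-07) without serum and -0.58 (SE 0.055, FDR 5.02e-06) with heme. All 9 libraries in Schneider's medium at 72 h lay between 96.3 and 119 CPM. At 48 h it was at 144, 133 and 156 CPM in untreated cells and at 101, 105 and 103 CPM with 20 μM heme, which at -0.48 (FDR 0.000672) was the largest absolute difference among the 8 genes tested there, and was not called, though DESeq2 called it.

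In A20 cells, AAEL014348 was at 26.8, 29.6 and 28.9 CPM with FBS, at 79.8, 79.5 and 72.3 CPM with 0 μM heme and at 51.6, 48.9 and 47.3 CPM with 10 μM heme. The order of the groups was that of Aag2 cells in L-15, without overlap. The 2.72-fold rise in 0 μM heme was called (log2 fold change 1.44, SE 0.095, edgeR quasi-likelihood FDR 3.56e-05), but the call was lost in 7 of the 9 fits that left out 1 library, at an FDR of up to 0.000670, and with library totals (FDR 0.000145). That call was also lost with the replicate number as a block. The fall with heme, of -0.65, was not called (FDR 0.000227), nor was the rise of 0.79 from FBS to 10 μM heme (FDR 0.000105), and both were called without 10 μM heme library 1 (FDR 6.73e-05 and 3.66e-05), by DESeq2 and by edgeR's exact test. With library totals the fall was -1.34 and called (FDR 1.76e-05), while the rise was 0.21 (FDR 0.144).

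AAEL012143 fell with heme in A20 cells, by more than any other of the 6 genes tested there. It was at 56.8, 62.5 and 60.8 CPM with FBS, at 45.7, 47.7 and 45.7 CPM with 0 μM heme and at 13.4, 9.18 and 10.4 CPM with 10 μM heme. The 3 groups did not overlap, and the 10 μM libraries were far below the rest. The 10 μM level was 4.21-fold below that of 0 μM heme (log2 fold change -2.07, SE 0.14, edgeR quasi-likelihood FDR 4.25e-06) and 5.45-fold lower than in FBS (-2.45, SE 0.14, FDR 5.93e-06), and both calls held without any 1 library. They were lost where only the groups compared were fitted, at an FDR of 0.000187 and 0.000206. The call against FBS was also lost with the replicate number as a block. IAP1 reads per AAEL012143 read went from 6.33 ± 0.345 with FBS to 13.4 ± 0.665 with 0 μM heme and 25.4 ± 2.51 with 10 μM heme in A20 cells (SD, n = 3), without overlap (exact permutation test, p = 0.10 for each). In the same order, IAP1 reads per AAEL014348 read fell, at 13.4 ± 0.697, 8.04 ± 0.778 and 5.60 ± 0.350. Per Dredd read they were 62.1 ± 6.94, 108 ± 4.01 and 31.1 ± 8.95, lowest with heme. In Aag2 cells, IAP1 reads per AAEL012143 read also fell from 0 to 10 μM heme. The means went from 11.0 to 5.11 in Schneider's medium and from 12.2 to 6.17 in L-15.

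In Aag2 cells, no difference of AAEL012143 within an experiment was called with TMM and the quasi-likelihood test. In Schneider's medium at 72 h its 9 libraries lay between 37.9 and 49.4 CPM, and the difference of 0.24 between 10 and 0 μM heme was not called (edgeR quasi-likelihood FDR 0.00464). In L-15 it was at 48.2, 50.6 and 52.3 CPM with FBS, at 62.2, 65.7 and 68.6 CPM with 0 μM heme and at 61.4, 55.3 and 57.3 CPM with 10 μM heme, where the change of 0.38 without serum was not called (FDR 0.000160). DESeq2 and edgeR's exact test called it (FDR 2.07e-07 and 1.30e-06), and with library totals it was 0.62 (FDR 2.43e-06) and the change of 0.20 from FBS to 10 μM heme was 0.59 (FDR 2.72e-06). At 48 h all 6 libraries lay between 27.3 and 32.3 CPM and the groups overlapped.

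AAEL005955 was barely detected. It had between 0 and 19 reads in any library, passed the filter in L-15 alone, where its groups overlapped (0.05, 0.04 and 0.17 CPM with FBS, 0.05, 0.36 and 0.26 CPM with 0 μM heme, 0.61, 0.54 and 0.07 CPM with 10 μM heme), and was not called. In A20 cells it had 2 reads in the 9 libraries together.

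**Figure D3:**
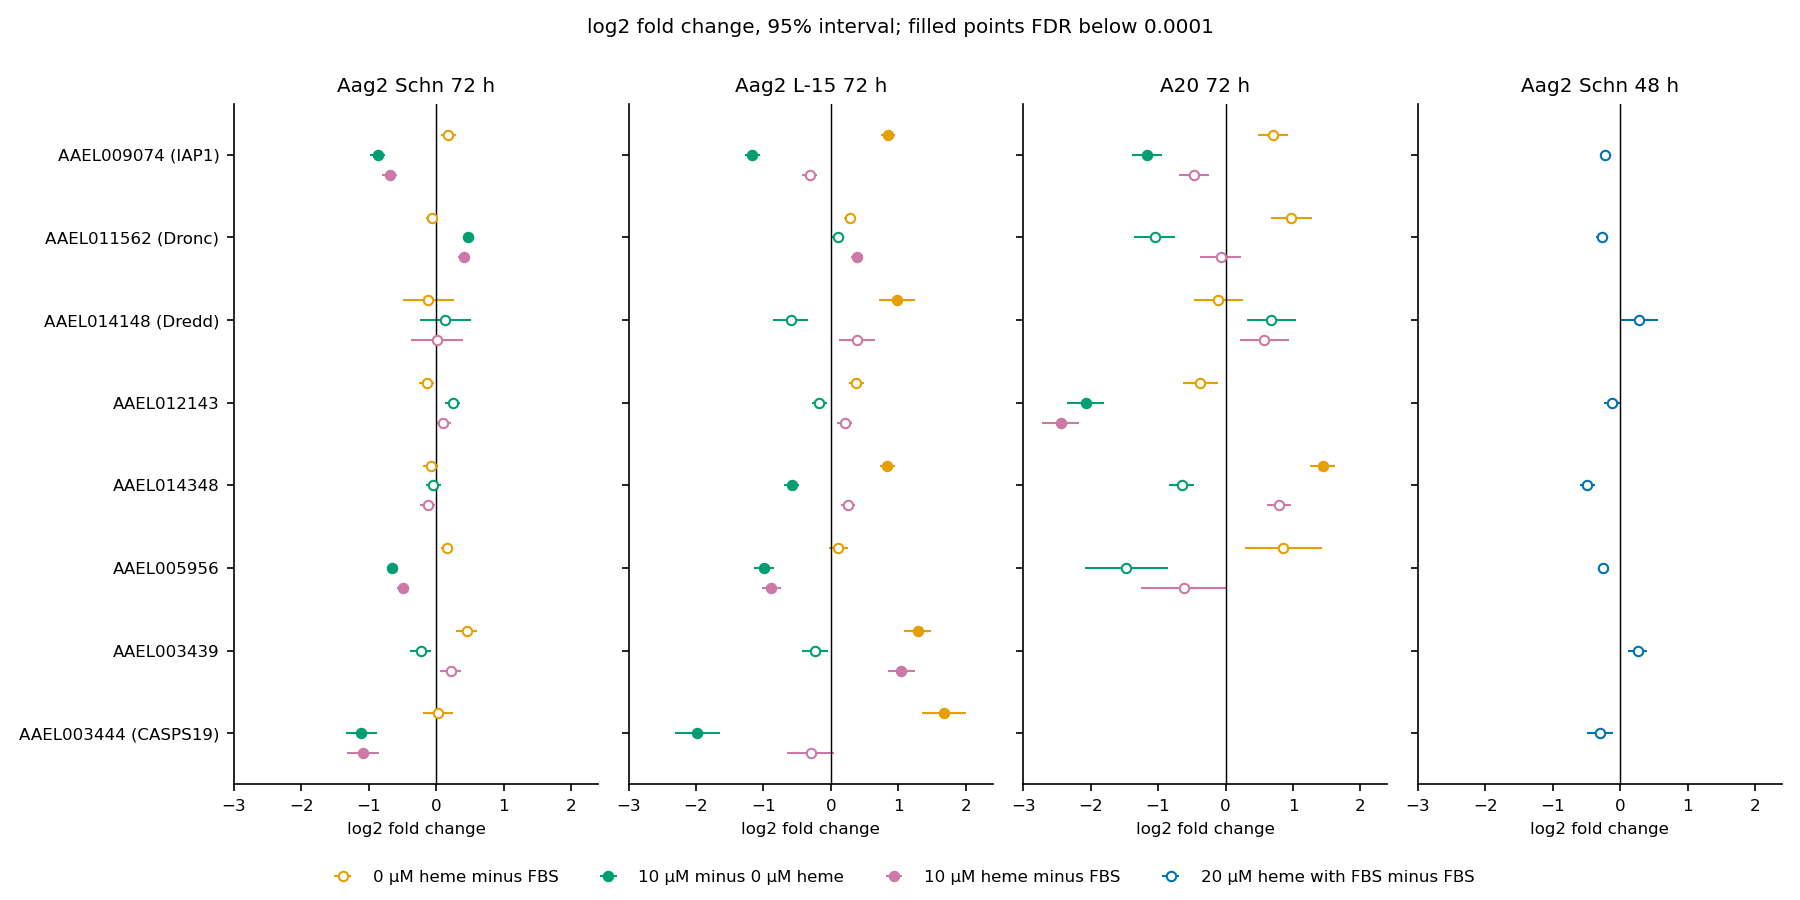
The log2 fold change of each gene (rows of points) in each comparison (colours), in 1 panel per experiment, with bars for the 95% interval. Filled points have an FDR below 0.0001, genes that did not pass the filter have no point, and AAEL005955 is left out. The changes of 10 μM against 0 μM heme in IAP1, AAEL005956 and AAEL003444 lie left of 0 in both Aag2 media, while AAEL012143 reaches -2.45 in A20 cells.

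Counted together, heme changed 4 of the 8 genes tested in Aag2 cells in Schneider's medium at 72 h, 1 higher (Dronc) and 3 lower (IAP1, AAEL005956 and AAEL003444), where 17.1% of all genes tested were called, 7.53% higher and 9.55% lower. The median log2 fold change of the 8 was -0.14, beside 0.03 over all genes. In L-15, heme lowered 4 of 9 genes (IAP1, AAEL014348, AAEL005956 and AAEL003444) and raised none, with 18% of all genes called, 9.87% lower, and medians of -0.58 for the 9 and 0.02 for all. In A20 cells it lowered 2 of 6 (IAP1 and AAEL012143), with 18.9% of all genes called and medians of -1.11 for the 6 and -0.19 for all. In that comparison 9.14% of all genes were called lower.

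Against FBS, 10 μM heme without serum gave calls in 4 of 8 genes in Schneider's medium, 1 higher (Dronc) and 3 lower (IAP1, AAEL005956 and AAEL003444), where 13.8% of all genes were called, 6.33% higher and 7.47% lower. Without FBS library 2 or 3 this count was 2. In L-15 it gave calls in 3 of 9, with Dronc and AAEL003439 higher and AAEL005956 lower, where 33.7% of all genes were called, 15.5% higher and 18.2% lower, so the count is near the background. In A20 cells it gave 1 of 6, AAEL012143, where 10.8% of all genes were called and 6.38% were called lower.

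Removal of serum raised 5 of 9 genes in Aag2 cells in L-15 (IAP1, Dredd, AAEL014348, AAEL003439 and AAEL003444) and lowered none, where 23.9% of all genes were called and 10.8% were called higher. The median log2 fold change of the 9 was 0.85, beside 0.02 over all genes. In A20 cells, where the basal medium changed with the serum, 1 of 6 rose (AAEL014348), with 0.433% of all genes called and 0.4% called higher. Serum removal changed none of the 8 by edgeR's call in Schneider's medium, where 2.5% of all genes were called. There, 3 of the 8 had an FDR below 0.05, all 3 higher (IAP1, AAEL005956 and AAEL003439, log2 fold changes of 0.18, 0.15 and 0.45), and 21.9% of all genes passed that FDR. DESeq2 called 1 gene and edgeR's exact test none, with the share of all genes under these tests not given here.

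At 48 h with 20 μM heme in full medium, edgeR called none of the 8 genes and 0.766% of all genes. Of the 8, 5 had an FDR below 0.05, with IAP1, Dronc, AAEL014348 and AAEL005956 lower and AAEL003439 higher, where 22.3% of all genes passed that FDR. DESeq2 called 3 of the 8 (IAP1, AAEL014348 and AAEL005956) and edgeR's exact test 1, all lower. The share of all genes under these tests is not given here.

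At the looser FDR of 0.05, more of the genes passed, as did more of all genes. For 10 against 0 μM heme, 6 of 8 passed in Schneider's medium, where 50.2% of all genes did, 6 of 9 in L-15 (57.4% of all genes) and 6 of 6 in A20 cells (66.7%). For 10 μM heme against FBS, 5 of 8 passed in Schneider's medium (44.2% of all genes), 7 of 9 in L-15 (68.1%) and 4 of 6 in A20 cells (59.3%). For 0 μM heme against FBS, 7 of 9 passed in L-15 (56.2%) and 3 of 6 in A20 cells (29.5%). Of the differences of responses described next, 7 of 9 passed for serum removal (49% of all genes), 7 of 9 for heme between the Aag2 media (34.7%) and 3 of 8 for heme between the lines (60.9%).

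Whether the responses differed between experiments was tested directly, as a contrast of group means in a joint fit of both experiments. The Aag2 cultures in L-15 and in Schneider's medium were separate experiments. Medium and experiment therefore cannot be told apart in any comparison between them. The response to serum removal was larger in L-15 than in Schneider's medium for 6 of the 9 genes, where 22.1% of all genes were called and 9.74% were called larger. The difference of log2 fold changes was 0.70 (SE 0.078, edgeR quasi-likelihood FDR 6.92e-07) for IAP1, 0.38 for Dronc (FDR 2.13e-05), 0.55 for AAEL012143 (FDR 2.47e-05), 0.95 for AAEL014348 (FDR 1.25e-08), 0.86 for AAEL003439 (FDR 1.13e-05) and 1.68 for AAEL003444 (FDR 2.10e-06). For AAEL005956 it was -0.02, with a 95% interval from -0.18 to 0.15 (FDR 0.900). Dredd, at 1.13, was not called (FDR 0.000673).

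The response to 10 μM heme differed between the Aag2 media for 2 of the 9 genes, where 9.87% of all genes were called and 6.64% were called lower. It was more negative in L-15 for AAEL014348 (-0.55, SE 0.078, edgeR quasi-likelihood FDR 2.75e-05) and less positive in L-15 for Dronc (-0.38, SE 0.057, FDR 4.49e-05). Both calls were lost with many of the 18 single libraries left out, 9 for AAEL014348 and 10 for Dronc. The falls of IAP1, AAEL005956 and AAEL003444 were each deeper in L-15, by -0.30, -0.35 and -0.88, with none of these differences called (FDR 0.00550, 0.00387 and 0.00312).

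Between A20 cells and Aag2 cells in L-15 the response to 10 μM heme differed for 3 of the 8 genes tested, where 26.5% of all genes were called, 15% higher and 11.5% lower. The difference, A20 minus Aag2, was -1.75 for AAEL012143 (SE 0.15, edgeR quasi-likelihood FDR 5.64e-08), -1.01 for Dronc (SE 0.16, FDR 6.13e-05) and 1.42 for Dredd (SE 0.23, FDR 5.10e-05), and with library totals in place of TMM, which moved the median over all genes by -0.98, the first 2 were -2.72 and -1.98. The call for Dronc was lost without each of 13 of the 18 libraries and that for Dredd without each of 10, and with library totals the Dredd difference was 0.42 (FDR 0.0896). For IAP1 the difference was 0.14, with a 95% interval from -0.11 to 0.39 (FDR 0.348), and with library totals it was -0.84 (FDR 0.000257). For AAEL014348 it was 0.08 with TMM (FDR 0.522) and -0.90 with library totals (FDR 1.32e-05), and for AAEL005956 it was -0.34 (FDR 0.307) and -1.32 (FDR 4.92e-05). AAEL003439 and AAEL003444 are among the 8 but could not be compared, having next to no reads in A20 cells. The serum-free medium was SF900II for A20 and L-15 for Aag2, so line and medium cannot be told apart here.

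**Figure D4:**
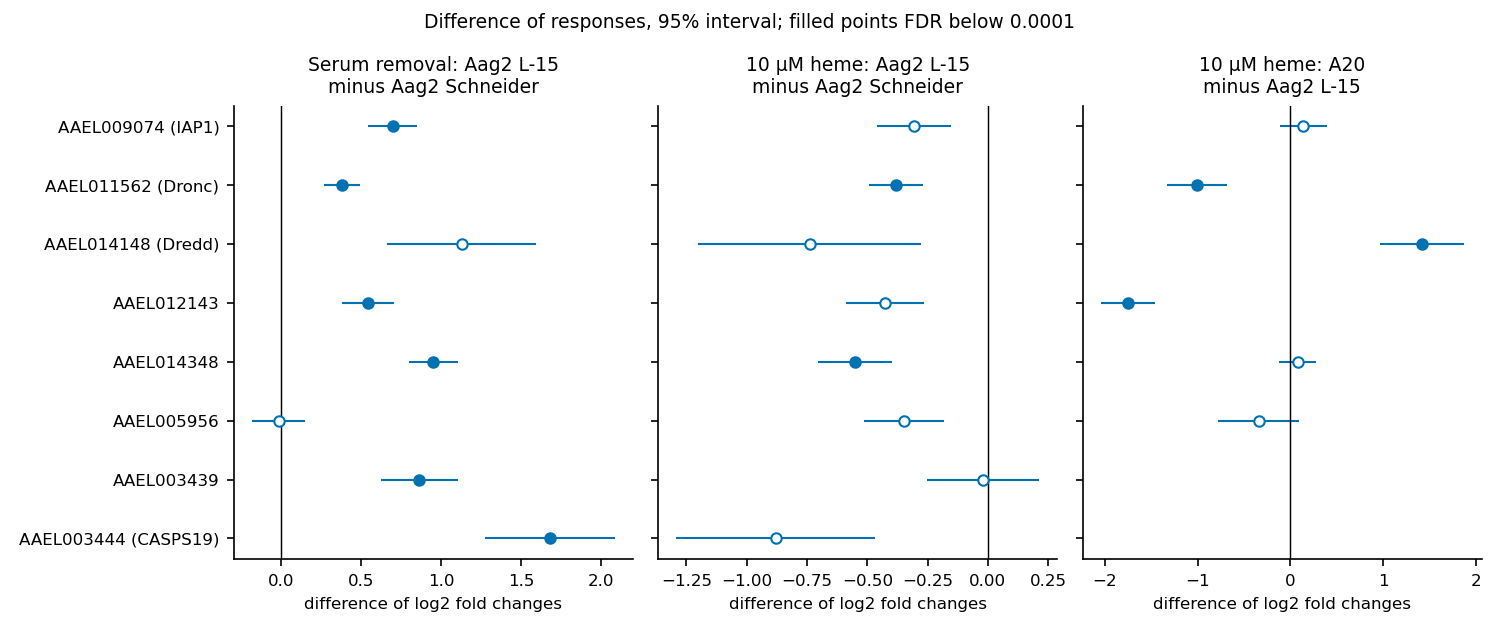
Difference of 2 log2 fold changes for each gene, with bars for the 95% interval: serum removal in L-15 minus Schneider's medium (left), 10 μM heme in L-15 minus Schneider's medium (middle), and 10 μM heme in A20 minus Aag2 cells in L-15 (right). Filled points have an FDR below 0.0001. Serum removal differs most for AAEL003444 (1.68), and the response to heme of AAEL012143 is more negative in A20 cells (-1.75).

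Under the medium the lines share, L-15 with FBS, the levels of several effector-type caspases lay far apart. When the 18 libraries of both experiments were scaled together, AAEL005956 was at 0.901 ± 0.153 CPM in A20 and 92.5 ± 10.1 CPM in Aag2 cells (SD, n = 3), 103-fold apart, and AAEL014348 was at 34.7 ± 1.90 and 154 ± 10.3 CPM, 4.43-fold apart. AAEL003439 and AAEL003444 had no read in these A20 libraries and 556 and 331 reads in the Aag2 libraries, which is at least 150-fold and at least 89.4-fold higher in Aag2, taking 3 reads over the group as the floor. Under this joint scaling, IAP1, Dronc, Dredd and AAEL012143 leaned to A20. IAP1 was at 464 ± 48.2 CPM in A20 and 353 ± 12.8 CPM in Aag2 cells, Dronc at 63.3 ± 8.89 and 47.7 ± 1.53 CPM, Dredd at 7.51 ± 0.938 and 3.50 ± 0.489 CPM, and AAEL012143 at 73.2 ± 3.91 and 40.0 ± 1.69 CPM. Scaled within each experiment, means of IAP1 (381 CPM in A20, 445 in Aag2) and Dronc (51.9 and 60.1) stood the other way. Dredd and AAEL012143 kept their order. The TMM factors within an experiment are relative to its own libraries. They were 1.13, 1.10 and 1.11 for these A20 libraries and 0.860, 0.863 and 0.866 for these Aag2 libraries. Means scaled within each experiment are therefore not on a common scale between the lines, and the lean of IAP1 and Dronc is given for the joint scaling alone. These levels carry no test, since line and experiment cannot be told apart.

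Over the 24 Aag2 libraries, after each experiment was centred on its own mean, the log2 CPM of IAP1 had a Pearson correlation of 0.95 with AAEL003444 and 0.85 with AAEL005956, of 0.67 with AAEL014348 and of -0.37 with Dronc. AAEL014348, whose difference between 10 and 0 μM heme was called in L-15 but not in Schneider's medium, had a correlation of 0.36 with AAEL005956. These libraries share their treatments, so the values describe group patterns and carry no p. Across all 33 libraries and 7265 genes that were tested in every experiment and had a mean of at least 10 CPM, the genes most like IAP1 by the same measure were AAEL002214, AAEL025130 and AAEL006283 (0.93, 0.91 and 0.91), and those most like Dronc were AAEL012268, AAEL023644 and AAEL002835 (0.96, 0.96 and 0.95).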

How the data were processed

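The authors deposited raw counts of reads per gene, 1 table per experiment, made by aligning reads to the AaegL5 genome with HISAT2 2.1.0 and counting with bedtools 2.19.1. Library kits were, per the labels, TruSeq small RNA at 48 h and NEBNext Ultra elsewhere, while the study's methods name a TruSeq RNA kit for mRNA in place of the small RNA kit. The 48 h experiment was compared with no other. Here the counts were filtered with filterByExpr, scaled by TMM and tested with edgeR 4.0.16 (R 4.3.3), using glmQLFit and glmQLFTest on all groups of an experiment, or jointly on 2 experiments for differences of responses, with Benjamini-Hochberg adjustment over all genes tested. The scripts were tested on simulated counts. Correlations used a prior count of 2. The study speaks of biological replicates, and p-values measure only the spread between these libraries. Every library pair of a group differed by more than sampling noise.

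All 9 genes found are named. The members, gene lists and tests were chosen with earlier results of these data known, and the read ratios after values were seen. A list of other apoptosis genes by annotation words was not built. Of the identifiers used in the counts, 0 appear in the RefSeq gene table, and no sequence could be shown. The study's annotation was used for AAEL003444 alone. AAEL003444 was placed by the bounds the study's annotation gives it, which match 1 RefSeq gene. No gene was ranked by likeness to AAEL003444, which was not tested in A20 cells. Alternatives were RLE size factors, library totals, no filter, edgeR's exact test, DESeq2 1.42.0, an FDR of 0.05, a fit of only the groups compared, the replicate number as a block, and each library left out.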

Additional observations from a re-analysis of the deposited data

Results flagged for a closer look

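Responses that differed between experiments, by the test of the difference itself with edgeR's quasi-likelihood FDR below 0.0001, are listed here as differences of log2 fold changes. For serum removal in L-15 minus Schneider's medium in Aag2 cells they were 0.70 for IAP1, 0.38 for Dronc, 0.55 for AAEL012143, 0.95 for AAEL014348, 0.86 for AAEL003439 and 1.68 for AAEL003444. The call was lost for Dronc without FBS library 1 (FDR 0.000115) or 0 μM heme library 1 (FDR 0.000133) of Schneider's medium, and for AAEL012143 without each of 4 libraries, at an FDR of 0.000101 to 0.000110.

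For 10 μM heme in L-15 minus Schneider's medium the differences were -0.38 for Dronc and -0.55 for AAEL014348. For 10 μM heme in A20 minus Aag2 cells in L-15 they were -1.01 for Dronc, 1.42 for Dredd and -1.75 for AAEL012143.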

How the results depend on the processing

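The number of genes called kept within 1.5 times its value under most settings, and the exceptions follow. Except at an FDR below 0.05, the share of all genes called is not given beside the counts of this section. These counts therefore describe only how far the calls held. With library totals in place of TMM, the calls were 5 for 10 μM heme against FBS in L-15, 0 for 0 μM heme against FBS in A20 and 4 for 10 against 0 μM heme in A20. With DESeq2 they were 1 (0 μM heme against FBS, Schneider's medium), 3 (0 μM heme against FBS, A20), 4 (10 against 0 μM heme, A20), 2 (10 μM heme against FBS, A20) and 3 (48 h). With edgeR's exact test they were 3, 4 and 2 for the same A20 comparisons and 1 at 48 h. With no filter, 1 gene was called at 48 h. Where only the groups compared were fitted, 0 were called for 10 against 0 μM heme and for 10 μM heme against FBS in A20. At an FDR below 0.05, the calls were 3 (0 μM heme against FBS, Schneider's medium), 7 (10 μM heme against FBS, L-15), 3, 6 and 4 (the A20 comparisons), 5 (48 h) and 7 (heme, L-15 minus Schneider's medium).

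With the replicate number as a block, 0, 1 and 0 genes were called in the A20 comparisons, 0 for heme in L-15 minus Schneider's medium and 1 for heme in A20 minus L-15. Libraries of the same number did not deviate together (r from -0.04 to 0.13, over 0.1 in 1 of 30 pairs), so the numbers were not taken to pair the samples.

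With 1 library left out, the calls ranged from 0 to 0, 3 to 4 and 2 to 4 in Schneider's medium (0 μM heme against FBS, 10 against 0 μM heme, 10 μM heme against FBS), from 4 to 5, 4 to 4 and 2 to 4 in L-15, from 0 to 1, 1 to 4 and 1 to 2 in A20, and from 0 to 0 at 48 h. For differences of responses they ranged from 4 to 6 (serum removal), 0 to 2 (heme, L-15 minus Schneider's medium) and 1 to 3 (heme, A20 minus L-15).

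No value of a single gene that was called changed sign under any setting. Library totals changed the sign of 10 of 103 values, and 1 of these was called under that setting: the difference of AAEL014348 in its response to heme, A20 minus Aag2 cells in L-15, was -0.90 with library totals (FDR 1.32e-05) and 0.08 with TMM. With RLE size factors all 103 values kept their side of the threshold, and 1 near 0 changed sign. Library totals moved the median log2 fold change of all genes by 0.25, 0.14 and 0.39 in the L-15 comparisons (0 μM heme against FBS, 10 against 0 μM heme, 10 μM heme against FBS), by 0.12, -0.70 and -0.58 in A20 and by -0.04, 0.15 and 0.11 in Schneider's medium. The cause of these changes was not tested. Low counts limit what can be said of AAEL005955 everywhere, and of AAEL005956, AAEL003439 and AAEL003444 in A20 cells.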
